A study of Homo sapiens with 12 samples.

Results

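Serum response factor (SRF) and 8 genes of the cell's adhesion and actin machinery were followed through an epidermal growth factor (EGF) time course in cells with and without knockdown of LAD1. The set was chosen by gene symbol and holds the transcription factor SRF, the adhesion plaque genes VCL, TLN1, ZYX, FHL2, CSRP1 and PDLIM7, the myosin gene MYH9, and TUFT1. All 9 genes are in the deposited table of 26365 genes, and all 9 passed the filter on low values that left 13950 genes for testing.

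The study comes from work on LAD1, an actin-associated protein that binds filamin, and on its part in the response to EGF. It used HCC70, an established human line from a triple-negative breast cancer of basal-like type. Every library came from cells that stably carried an shRNA, either a scramble control (scramble) or an shRNA against LAD1 (shLAD1). All cells were kept overnight without serum, and RNA was sampled without EGF (0 min) or after 40 or 240 min with EGF at 50 ng/ml. That gives 6 groups of 2 libraries: scramble at 0, 40 and 240 min, and shLAD1 at 0, 40 and 240 min. The labels give no further shRNA to LAD1 and do not say whether the carriers were clones or pools. No starved library without EGF was sampled at 40 or 240 min, so the effect of EGF cannot be told apart from that of the added time and handling. The labels do not say that the 2 libraries of a group came from separate cultures, so p-values measure only the spread between these libraries, which may be technical.

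SRF binds DNA as a dimer at a short A/T-rich element called the CArG box. It works with either of 2 classes of partner. The ternary complex factors ELK1, ELK3 and ELK4 respond to ERK signalling and drive immediate early genes such as FOS and EGR1, while the myocardin-related factors MKL1 and MKL2 are held in the cytoplasm by monomeric actin and drive genes of the cytoskeleton. The protein products of the set sit where integrin adhesions meet actin. Talin (TLN1) links integrins to actin, vinculin (VCL) strengthens that link, zyxin (ZYX) gathers at adhesions and stress fibres under tension, FHL2, CSRP1 and PDLIM7 are LIM domain proteins of actin structures, and MYH9 is the heavy chain of non-muscle myosin IIA. TUFT1 encodes tuftelin, first described in developing enamel.

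CArG boxes were looked for because they are the element that SRF binds. The search took 10-base matches to the CArG consensus (CC, 6 A or T, GG), which reads as its own consensus on the other strand, in RefSeq windows of build GRCh38.p14 that run from 250 bases before to 50 bases after a gene's start. The 9 genes matched 15 such windows. A full match was present in 4 of the 15 windows (26.7%), belonging to SRF and FHL2, against 454 of all 35116 RefSeq windows (1.29%). Overlapping windows of FHL2 hold the same box, which is counted in each. By gene that was 2 of 9 members (22.2%), against 438 of all 27305 RefSeq genes (1.6%). The set was chosen as SRF and its targets, so this contrast is no test of it. A match with 1 base of the A/T core replaced was present in 1 further window, that of ZYX, against 6.94% of all windows. The stretches that hold them are shown 5′ to 3′ on the gene's own strand, with the CArG box or near match in capitals. They lie at chr6:43171199-43171268 (plus strand) for SRF, chr2:105438585-105438634 and chr2:105399081-105399130 (minus strand) for FHL2, and chr7:143381219-143381268 (plus strand) for ZYX.
SRF: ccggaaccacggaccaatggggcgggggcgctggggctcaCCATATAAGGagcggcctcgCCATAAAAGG
FHL2, distal: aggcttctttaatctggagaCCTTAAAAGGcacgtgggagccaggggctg
FHL2, proximal: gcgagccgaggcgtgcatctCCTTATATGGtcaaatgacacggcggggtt
ZYX, 1 core base replaced: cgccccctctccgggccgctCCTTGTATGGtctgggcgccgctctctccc

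SRF carries 2 boxes side by side, at 30 to 21 and 10 to 1 bases before the RefSeq start. The distal FHL2 box lies 101 to 92 bases before a RefSeq start and 85 to 76 bases before another, and the proximal box lies 59 to 50 bases before a further start. The ZYX near match lies 106 to 97 bases before its RefSeq start. Starts differ between annotations. The outermost GENCODE start of SRF lies 30 bases downstream of its RefSeq start. That of ZYX is at chr7:143381080, so the ZYX near match lies after it. These are matches of letters only. The windows of VCL, TLN1, TUFT1, CSRP1, PDLIM7 and MYH9 hold neither kind of match, which says nothing of sites outside them.

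LAD1 itself gave the check on the labels. It lay between 5808 and 10194 normalized counts in the 6 scramble libraries and between 865 and 2535 in the 6 shLAD1 libraries, and was lower in shLAD1 cells at 0 min by a log2 change of -2.66 ± 0.13 (limma-trend, adjusted p = 0.00012). Libraries held 12428618 to 16721013 reads. A normalized count is a gene's read count divided by a size factor of the library, and it can be compared between libraries but not between genes of different length. Behind the members stood 288 reads at the least (FHL2) and 31101 at the most (MYH9) per library. The basal markers KRT5 (39623 to 78195), KRT17 and EGFR were abundant, while TP63 (15.4 to 34.5), ESR1 and PGR were low. Of the luminal markers GATA3 read 1198 to 1709 and FOXA1 963 to 2631. The 5 basal markers summed to 47813 and 55856 in the scramble libraries at 0 min and to 76467 and 90206 at 240 min. The 4 fibroblast markers summed to 243 to 376 in scramble and 510 to 897 in shLAD1 libraries, nearly all of it COL1A1, with DCN at 0 and COL1A2 at no more than 1.02 throughout. The 3 endothelial markers summed to 10.1 to 17.6 in scramble and 29.8 to 46.0 in shLAD1 libraries. Their part in the differences below was not tested. In bulk RNA, fewer cells of a type and less RNA per cell cannot be told apart.

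The members did not all rise at the same time along the EGF course. SRF and TUFT1 passed the test as higher at 40 min in both kinds of cell. VCL, FHL2, ZYX, PDLIM7 and MYH9 passed as higher at 240 min in both, and FHL2 passed at 40 min in shLAD1 cells too. For FHL2 and ZYX the 40 min libraries already lay above the 0 min libraries in both kinds of cell. By 240 min TUFT1 had returned close to its starting level, while SRF stayed above it. TLN1 and CSRP1 did not pass the test at either time. All changes are differences of log2(normalized count + 1), given with the standard error from limma-trend, which pooled the spread of all 12 libraries, and a gene counts as called where its p, adjusted by the Benjamini-Hochberg method over the 13950 genes, was under 0.05.

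At 40 against 0 min in scramble cells 2 of 9 members were called higher and 0 lower, where 0.846% of all tested genes were called higher and 0.00717% lower. In shLAD1 cells 3 of 9 were called higher and 0 lower, against 1.02% and 0.0215% of all genes. At 240 against 0 min 6 of 9 were called higher and 0 lower in scramble cells, where the background was 11.7% higher and 8.44% lower. The same comparison in shLAD1 cells called 6 of 9 higher and 0 lower, against 10.8% and 7.76%. From 40 to 240 min 5 of 9 members were called higher and 1 lower in scramble cells, where the background was 10.2% and 8.34%. In shLAD1 cells these counts were also 5 and 1, against 8.84% and 7.56%. The median log2 change of the 9 members was 0.11 at 40 min and 0.76 at 240 min in scramble cells, beside -0.01 and -0.02 over all genes. In shLAD1 cells it was 0.28 and 0.66, beside -0.00 and -0.01. All comparisons with 0 min of a kind of cell share the same 0 min libraries. The members and the gene lists below were chosen with earlier results of these data known. Their counts beside the shares of all genes are therefore no test of enrichment.

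**Figure D1:**
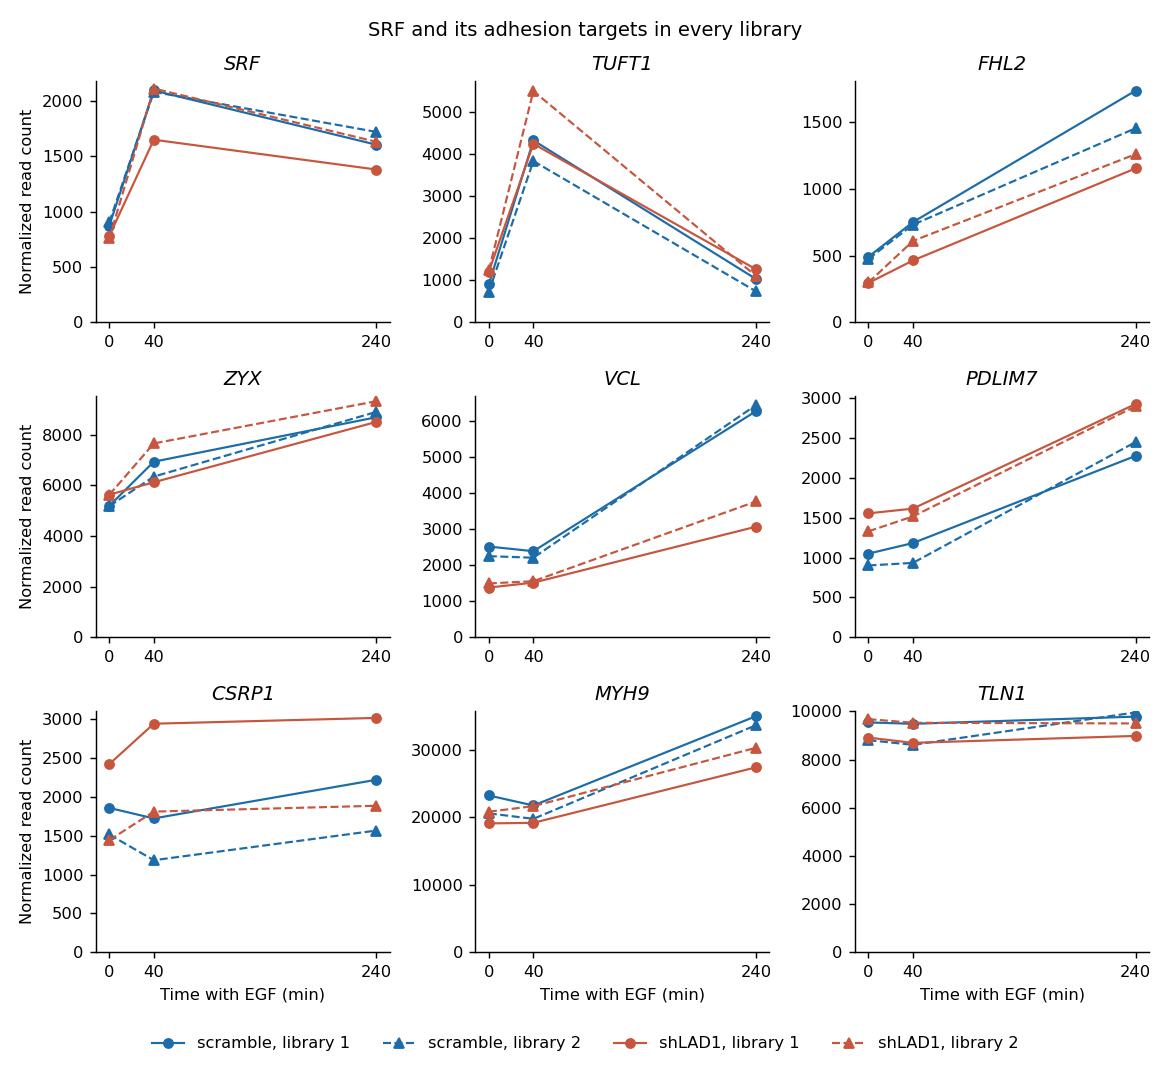
Normalized read count of SRF and its 8 companion genes (vertical axes, each from 0) against time with EGF in minutes (horizontal axes). Each point is 1 library, blue for scramble and red for shLAD1, circles for library 1 and triangles for library 2, and lines join libraries of the same number. SRF and TUFT1 peak at 40 min, VCL, FHL2, PDLIM7 and MYH9 are highest at 240 min, and the 2 VCL lines of shLAD1 cells lie below those of scramble cells at every time.

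SRF, the transcription factor of the set, rose at 40 min and stayed raised at 240 min. In scramble cells its normalized counts were 873 and 905 at 0 min, 2096 and 2083 at 40 min, and 1605 and 1721 at 240 min. In shLAD1 cells they were 781 and 758, then 1651 and 2113, then 1381 and 1632. Both 0 min groups lay below every EGF library, as the plot of levels by time shows. At 40 min SRF was higher by 1.23 ± 0.12 in scramble cells (2.35-fold, adjusted p = 0.00101) and in shLAD1 cells by 1.28 ± 0.12 (2.42-fold, adjusted p = 0.000616). At 240 min it was higher by 0.90 ± 0.12 (adjusted p = 0.00101) and 0.96 ± 0.12 (adjusted p = 0.000963). With only the 4 libraries compared in the fit, the 40 min rise in shLAD1 cells had an adjusted p of 0.124, where library 1 at 1651 and library 2 at 2113 lay far apart. The step down from 40 to 240 min missed the threshold, at -0.33 ± 0.12 in scramble cells (adjusted p = 0.0884) and -0.31 ± 0.12 in shLAD1 cells (adjusted p = 0.109). With the library number as a block it passed in both, at an adjusted p of 0.0209 and 0.0273, as it did in shLAD1 cells without library 1 at 40 min (-0.49, adjusted p = 0.0268).

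In order of level, SRF ran from shLAD1 at 0 min through scramble at 0 min to the EGF groups. The lowest pair of groups did not overlap, yet their difference did not pass the test. Then came shLAD1 and scramble at 240 min and shLAD1 and scramble at 40 min, and each of these ranges overlapped the next.

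TUFT1 had the sharpest course of the set. Its counts in scramble cells were 906 and 731 at 0 min, 4333 and 3841 at 40 min, and 1032 and 738 at 240 min. In shLAD1 cells they were 1206 and 1241, then 4251 and 5507, then 1264 and 1104. The 4 libraries at 40 min lay above all 8 others, and the 0 and 240 min ranges overlapped within each kind of cell. The rise at 40 min was 2.32 ± 0.18 in scramble (5.01-fold, adjusted p = 0.000366) and 1.98 ± 0.18 in shLAD1 cells (3.95-fold, adjusted p = 0.000708). From 40 to 240 min TUFT1 fell by 2.22 ± 0.18 (adjusted p = 0.000205) and by 2.03 ± 0.18 (adjusted p = 0.000378). At 240 against 0 min the change was 0.10 in scramble cells, with a 95% interval of -0.31 to 0.52, and -0.05 in shLAD1 cells, with an interval of -0.47 to 0.36.

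FHL2, a LIM domain protein that shuttles between adhesions and the nucleus, climbed at each step. In scramble cells it read 492 and 476 at 0 min, 752 and 732 at 40 min, and 1738 and 1456 at 240 min. In shLAD1 cells it read 296 and 299, then 464 and 611, then 1155 and 1262. Within each kind of cell the 3 times did not overlap. At 240 min the rise was 1.72 ± 0.13 in scramble (3.28-fold, adjusted p = 0.000125) and 2.02 ± 0.13 in shLAD1 cells (4.05-fold, adjusted p = 7.42e-05). At 40 min it was 0.84 ± 0.13 in shLAD1 cells (adjusted p = 0.017), which passed, and 0.62 ± 0.13 in scramble cells (adjusted p = 0.101), which did not. Both of these calls turned on the setting. The scramble value passed with the library number as a block (adjusted p = 0.0438), while the shLAD1 value no longer passed without either 0 min library (0.83 and 0.85, adjusted p = 0.112 in each), without the second 40 min library (0.64, adjusted p = 0.0871), or with only the 4 libraries compared (adjusted p = 0.474).

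ZYX, the zyxin gene, was higher at 240 min. It read 5186 and 5176, then 6930 and 6342, then 8686 and 8898 in scramble cells. In shLAD1 cells it read 5629 and 5621, then 6119 and 7651, then 8502 and 9320. The times were apart within each kind of cell. ZYX rose by 0.76 ± 0.10 at 240 min in scramble (adjusted p = 0.00106) and in shLAD1 cells by 0.66 ± 0.10 (adjusted p = 0.0025). At 40 min the change was 0.36 ± 0.10 (adjusted p = 0.358) and 0.28 ± 0.10 (adjusted p = 0.633). From 40 to 240 min it rose by 0.41 ± 0.10 in scramble (adjusted p = 0.0224) and 0.38 ± 0.10 in shLAD1 cells (adjusted p = 0.0327). The scramble call was lost without any 1 of its 4 libraries (0.34 to 0.47, adjusted p from 0.059 to 0.147). The shLAD1 call was lost without library 1 at 40 min (0.22), library 1 at 240 min (0.45) or library 2 at 240 min (0.31), with adjusted p from 0.0554 to 0.169, and with only the 4 libraries compared (adjusted p = 0.217).

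VCL, the vinculin gene, did not pass at 40 min and was higher at 240 min. Scramble cells gave 2520 and 2253 at 0 min, 2390 and 2209 at 40 min, and 6280 and 6450 at 240 min. The shLAD1 cells gave 1381 and 1495, then 1517 and 1557, then 3072 and 3772. Every shLAD1 library lay below both scramble libraries of its time, and the shLAD1 libraries at 240 min lay above the scramble libraries at 0 min. VCL rose by 1.42 ± 0.10 at 240 min in scramble (2.67-fold, adjusted p = 9.64e-05) and in shLAD1 cells by 1.24 ± 0.10 (2.37-fold, adjusted p = 0.000165). At 40 min the change was -0.05 (95% interval -0.28 to 0.18) and 0.10 (-0.14 to 0.33). In order of level the groups ran shLAD1 at 0 and 40 min, scramble at 40 and 0 min, shLAD1 at 240 min and scramble at 240 min. Only the scramble groups at 0 and 40 min overlapped, and neither they nor the shLAD1 groups at 0 and 40 min differed by the test.

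PDLIM7, a PDZ and LIM domain protein of actin filaments, also waited until 240 min. It read 1051 and 902, then 1183 and 934, then 2278 and 2453 in scramble cells. It read 1557 and 1331, then 1616 and 1518, then 2930 and 2902 in shLAD1 cells. In contrast to VCL, every shLAD1 library lay above both scramble libraries of its time. PDLIM7 rose by 1.28 ± 0.13 at 240 min in scramble (2.43-fold, adjusted p = 0.000313) and in shLAD1 cells by 1.02 ± 0.13 (2.02-fold, adjusted p = 0.001).

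MYH9, the myosin IIA heavy chain, rose late as well. Its counts were 23242 and 20588, then 21759 and 19775, then 35010 and 33673 in scramble cells. They were 19100 and 20833, then 19187 and 21663, then 27417 and 30317 in shLAD1 cells. The 4 libraries at 240 min lay above the 8 others. The rise at 240 min was 0.65 ± 0.10 in scramble (1.57-fold, adjusted p = 0.00179) and 0.53 ± 0.10 in shLAD1 cells (1.45-fold, adjusted p = 0.00551). The latter missed the threshold with only the 4 libraries compared (adjusted p = 0.0654). From 40 to 240 min in shLAD1 cells MYH9 rose by 0.50 ± 0.10 (adjusted p = 0.00836), a call lost without library 1 at 40 min (0.41, adjusted p = 0.0512) or library 2 at 240 min (0.43, adjusted p = 0.0643), and with only the 4 libraries compared (adjusted p = 0.0973).

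CSRP1, a LIM protein that binds actinin and zyxin, split by library number rather than by time. Library 1 lay above library 2 in all 6 groups. The pairs were 1859 and 1517, 1724 and 1185, and 2222 and 1568 at 0, 40 and 240 min in scramble cells, and 2423 and 1443, 2944 and 1812, and 3019 and 1887 in shLAD1 cells. The change at 240 min was 0.15 ± 0.37 in scramble (adjusted p = 0.828) and 0.35 ± 0.37 in shLAD1 cells (adjusted p = 0.582), a standard error wider than that of the other 8 members. With the library number as a block CSRP1 passed at 240 against 0 min in shLAD1 cells (adjusted p = 0.0205) and at 240 against 40 min in scramble cells (0.39, adjusted p = 0.0133). With a block for each number within each shRNA it also passed at 40 against 0 min, where it was lower in scramble cells (-0.23, adjusted p = 0.0125) and higher in shLAD1 cells (0.30, adjusted p = 0.000633).

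TLN1, the talin gene, lay between 8609 and 9956 normalized counts in all 12 libraries. Its change at 240 min was 0.11 in scramble cells (95% interval -0.07 to 0.29) and -0.01 in shLAD1 cells (-0.19 to 0.17). With the block within each shRNA the scramble change at 240 min had an adjusted p of 0.0376. That block left a smaller spread and also called FHL2, ZYX and CSRP1 at 40 min in scramble cells, so that 5 of 9 members passed there in place of 2. In shLAD1 cells at 40 min it likewise gave 5 in place of 3. It raised the calls over all 13950 genes as well, from 119 to 530 (3.8%) in scramble and from 145 to 666 (4.77%) in shLAD1 cells.

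**Figure D2:**
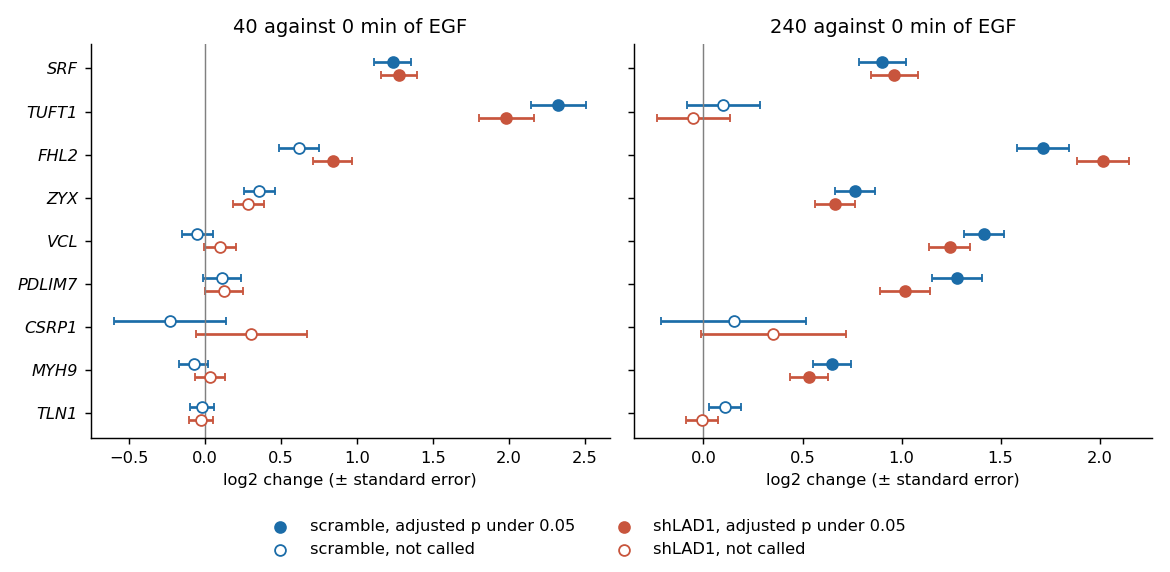
Log2 change of each of the 9 genes at 40 min (left) and 240 min (right) against 0 min of EGF (horizontal axes), with bars of 1 standard error, in scramble (blue) and shLAD1 cells (red). Filled points passed an adjusted p of 0.05 and open points did not. At 40 min TUFT1 (2.32 and 1.98) and SRF (1.23 and 1.28) lie farthest right, and at 240 min FHL2 (1.72 and 2.02) and VCL (1.42 and 1.24) do.

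The difference between the 2 EGF responses was tested as an interaction. At 40 min 0 of 9 members and 0% of all 13950 genes passed, and at 240 min again 0 of 9 and 0%. At an unadjusted p under 0.05 there were 99 genes at 40 min and 133 at 240 min. edgeR and DESeq2 on the recovered reads also called 0 genes. The intervals show what the libraries could not separate. For SRF the shLAD1 response minus the scramble response at 40 min was 0.05 (95% interval -0.33 to 0.42). For TUFT1 it was -0.34 (-0.93 to 0.24) at 40 min. At 240 min it was -0.17 for VCL (-0.50 to 0.15), 0.30 for FHL2 (-0.12 to 0.72) and -0.26 for PDLIM7 (-0.66 to 0.14). CSRP1 had the widest interval, 0.54 at 40 min (-0.66 to 1.73), and was the only member to pass with a block within each shRNA (adjusted p = 0.00146). That block called 11 of all 13950 genes at 40 min (0.0789%) and 27 at 240 min (0.194%).

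In shLAD1 cells VCL and FHL2 were lower, and PDLIM7 and TUFT1 higher, than in scramble cells on the mean of the 3 times. That mean takes the 12 libraries as separate samples. With each numbered population averaged first, 2 against 2, 0 genes were called (limma-trend). At 0 min 0 of 9 members were called higher and 2 lower, where 0.717% of genes were called higher and 0.839% lower. At 40 min 0 were called higher and 1 lower, against 0.81% and 0.839%. At 240 min the counts were again 0 and 1, against 0.444% and 0.509%. On the mean of the 3 times 2 were called higher and 2 lower, where 9.25% of genes were called higher and 9.3% lower. The median log2 difference of the 9 members was -0.02 on that mean, beside 0 over all genes.

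VCL was lower in shLAD1 cells by 0.73 ± 0.10 at 0 min, by 0.58 ± 0.10 at 40 min and by 0.90 ± 0.10 at 240 min on the log2 scale (differences of -0.73, -0.58 and -0.90, adjusted p = 0.017, 0.0318 and 0.00809). On the mean of the 3 times its difference was -0.74 ± 0.06, or 0.600 of the scramble level (adjusted p = 0.000189). These single-time calls rested on every library at 0 and 40 min. Leaving out any 1 library gave -0.65 to -0.81 at 0 min (adjusted p from 0.0572 to 0.121) and -0.52 to -0.64 at 40 min (adjusted p from 0.111 to 0.2). At 240 min the call was lost without scramble library 1 (-0.92, adjusted p = 0.0815) or 2 (-0.88, adjusted p = 0.0948). With only the 4 libraries compared, the adjusted p was 0.133 at 0 min, 0.139 at 40 min and 0.134 at 240 min.

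FHL2 differed by -0.70 ± 0.13 at 0 min (adjusted p = 0.0375), -0.48 ± 0.13 at 40 min (adjusted p = 0.125, or 0.0363 with the library number as a block) and -0.40 ± 0.13 at 240 min (adjusted p = 0.208). On the mean of the 3 times it was -0.53 ± 0.08 (adjusted p = 0.00249). Every shLAD1 library was below both scramble libraries of its time. The 0 min call was lost without any 1 of its libraries (-0.68 to -0.72, adjusted p from 0.115 to 0.212) and with only the 4 libraries compared (adjusted p = 0.156).

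PDLIM7 differed by 0.56 ± 0.13 at 0 min (adjusted p = 0.0665), 0.57 ± 0.13 at 40 min (adjusted p = 0.062) and 0.30 ± 0.13 at 240 min (adjusted p = 0.305). With the block the values at 0 and 40 min passed (adjusted p = 0.00508 and 0.00473). On the mean of the 3 times PDLIM7 was higher by 0.48 ± 0.07 (adjusted p = 0.0031). TUFT1 was higher by 0.42 ± 0.11 on that mean (adjusted p = 0.0252), a call lost without scramble library 2 at 0, 40 or 240 min (0.37, 0.39 and 0.34) or shLAD1 library 1 at 0 or 240 min (0.43 and 0.39), with adjusted p from 0.0544 to 0.0752. At single times TUFT1 did not pass.

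Of the other 5 members, none passed in the fit without a block, at any time or on the mean. CSRP1 differed by 0.69 ± 0.37 at 40 min (adjusted p = 0.404), and passed with the block at 40 min (adjusted p = 0.00222), at 240 min (0.35, adjusted p = 0.0459) and on the mean (0.40, adjusted p = 0.000478). With each numbered population averaged first, CSRP1 did not pass on the mean (limma-trend, adjusted p = 0.602). With the block 4 of 9 members passed at 40 min in place of 1, and 2 at 240 min in place of 1, while calls over all genes rose from 230 to 1578 (11.3%) and from 133 to 1462 (10.5%). SRF was -0.17 ± 0.07 on the mean (adjusted p = 0.112), and passed with the block (adjusted p = 0.0291) or without shLAD1 library 2 at 40 min (-0.23, adjusted p = 0.0252). ZYX differed by 0.06 (95% interval -0.07 to 0.19), MYH9 by -0.14 (-0.26 to -0.01) and TLN1 by -0.02 (-0.13 to 0.08) on the mean.

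The mean of the 3 times treats libraries of a kind of cell as separate samples, although same-numbered libraries at different times deviated together. Averaging each numbered population first, 2 against 2, an alternative chosen after seeing the data, called 0 genes by limma-trend, with 1798 at an unadjusted p under 0.05. On that footing VCL was -0.74 ± 0.09 (adjusted p = 0.162), FHL2 -0.53 ± 0.10 (adjusted p = 0.219), PDLIM7 0.48 ± 0.09 (adjusted p = 0.219) and TUFT1 0.42 ± 0.13 (adjusted p = 0.317). LAD1 itself, at -2.39, had an adjusted p of 0.111. The population levels were apart for VCL, at 3357 and 3178 in scramble and 1860 and 2063 in shLAD1 cells. CSRP1 was 0.40 ± 0.29 (adjusted p = 0.602) and SRF -0.17 ± 0.09 (adjusted p = 0.498) on the same footing. The CSRP1 levels overlapped, at 1923.9 and 1412.3 in scramble and 2782.5 and 1702.4 in shLAD1 cells.

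The authors' deposited table holds a single comparison, whose log2 fold changes lay within 0.01 of the 0 min ratio of shLAD1 to scramble for 99.98% of 11243 genes with a mean of at least 50. The authors' deposited table gives VCL a log2 fold change of -0.73 (adjusted p = 4.66e-07), FHL2 -0.70 (adjusted p = 0.00208), PDLIM7 0.56 (adjusted p = 0.00559) and TUFT1 0.58 (adjusted p = 0.0595), from the DESeq2 package named in the submitters' processing notes.

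**Figure D3:**
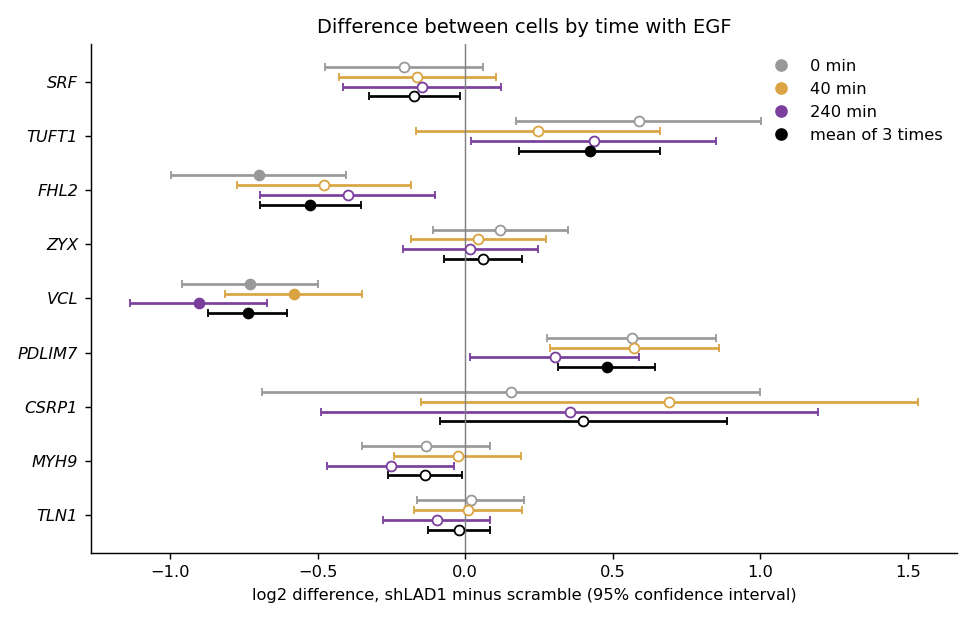
Log2 difference of shLAD1 minus scramble cells (horizontal axis) for each of the 9 genes, with 95% confidence intervals, at 0 min (grey), 40 min (yellow) and 240 min (purple) of EGF and on the mean of the 3 times (black). Filled points passed an adjusted p of 0.05. VCL is left of 0 at every time (-0.73, -0.58 and -0.90), PDLIM7 is right of it (0.56, 0.57 and 0.30), and TLN1 stays near 0.

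Of SRF's 6 tested partners, 0 passed at 40 min in either kind of cell. Over all genes 0.846% were called higher then in scramble and 1.02% in shLAD1 cells, and a count of 0 is near those shares. At 240 min 2 partners were higher and 1 lower in scramble cells, against 11.7% and 8.44% of all genes. In shLAD1 cells 1 was higher and 2 lower, against 10.8% and 7.76%. Of 9 symbols listed as SRF cofactors, 7 were in the file and 6 were tested. MYOCD, the myocardin gene of heart and smooth muscle, reached at most 1.03 normalized counts. ELK3, a ternary complex factor, read 342 and 416, then 326 and 364, then 1182 and 1297 in scramble cells and 311 and 457, then 338 and 426, then 919 and 1237 in shLAD1 cells. At 240 min it rose in scramble cells by 1.712 ± 0.212 (adjusted p = 0.000868), and in shLAD1 cells by 1.497 ± 0.212 (adjusted p = 0.00195). ELK1 rose by 0.51 ± 0.13 at 240 min in scramble cells (adjusted p = 0.0239), and was 0.37 in shLAD1 cells without passing. SCAI, a repressor of the myocardin-related factors, fell at 240 min, by 0.54 ± 0.13 in scramble (adjusted p = 0.018) and in shLAD1 cells by 0.47 ± 0.13 (adjusted p = 0.0331). MKL2 fell by 0.37 ± 0.08 in shLAD1 cells (adjusted p = 0.0142), and was -0.22 in scramble cells without passing. MKL1 did not pass in any comparison. Leaving out any 1 of the 4 libraries lost the calls of ELK1 (adjusted p from 0.0644 to 0.134) and of SCAI (0.0519 to 0.116 in scramble cells), and 3 of the 4 lost that of MKL2 (up to 0.0954). With only the 4 libraries compared, ELK3 in shLAD1 cells had an adjusted p of 0.0606. With the library number as a block, ELK1 in shLAD1 cells (adjusted p = 0.0206) and MKL2 in scramble cells (adjusted p = 0.0133) passed too. Between shLAD1 and scramble cells the mean of the 3 times called 1 of the 6 partners, ELK4, lower and 0 higher. Over all genes that mean called 9.25% higher and 9.3% lower. With each numbered population averaged first, ELK4 had an adjusted p of 0.436 (limma-trend). ELK4, at -0.20 ± 0.06, was the cofactor that passed between shLAD1 and scramble cells on the mean of the 3 times (adjusted p = 0.0351), a call lost in 8 of 12 fits that left out 1 library (adjusted p up to 0.0975).

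Genes classed as targets of SRF with ternary complex factors were higher at 40 min and lower again at 240 min. Of 10 listed, 9 were tested, and all 9 were called higher at 40 min in scramble cells, with a median log2 change of 5.43, and all 9 in shLAD1 cells, with a median of 5.79. The shares of all genes called higher there were 0.846% and 1.02%. This list was chosen with earlier results of these data known, so the contrast with those shares is no test of it. FOS rose by 5.43 ± 0.12 (adjusted p = 5.1e-08), EGR2 by 8.50 ± 0.38, JUNB by 3.85 ± 0.17 and IER2 by 2.57 ± 0.12 (adjusted p = 1.15e-05 for each of the last 3) in scramble cells. From 40 to 240 min all 9 were called lower in each kind of cell, against 8.34% of all genes in scramble and 7.56% in shLAD1 cells. EGR1 was higher in shLAD1 than in scramble cells at 240 min, by 1.53 ± 0.27 (adjusted p = 0.0484), a call lost without any 1 of the 4 libraries (adjusted p from 0.0774 to 0.298).

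Other actin genes regarded as targets of SRF with the myocardin-related factors were called more often at 240 than at 40 min. Calls do not time each rise. In scramble cells CNN2 averaged 1403, 2200 and 2212 normalized counts at 0, 40 and 240 min. ACTG1 averaged 14574, 31011 and 40506, and CYR61 547, 5892 and 959. Of 20 listed, 18 were tested. In scramble cells 3 were higher and 0 lower at 40 min and 10 higher and 0 lower at 240 min, with medians of 0.26 and 0.71. The shares of all genes called higher were 0.846% and 11.7%. In shLAD1 cells 4 were higher at 40 min and 8 at 240 min, with 0 lower at either time. Of all genes 1.02% and 10.8% were called higher there. From 40 to 240 min 7 were higher and 2 lower in scramble cells, against 10.2% and 8.34% of all genes. In shLAD1 cells these counts were 4 and 2, against 8.84% and 7.56%. The lower ones were CYR61 and CTGF in both. With only the 4 libraries compared, their adjusted p was 0.104 and 0.137 in scramble cells, and 0.0167 and 0.0592 in shLAD1 cells. With the library number as a block 6 passed at 40 min in scramble and 7 in shLAD1 cells, where 1.45% and 1.96% of all genes were called. TPM4, a tropomyosin, rose at both times in scramble cells (0.84 ± 0.12 at 40 min, adjusted p = 0.00936, and 1.36 ± 0.12 at 240 min, adjusted p = 0.000163). ACTG1, cytoplasmic gamma actin, rose by 1.09 ± 0.18 at 40 min in scramble cells (adjusted p = 0.0318). CYR61, a secreted matrix protein, rose by 3.36 ± 0.45 at 40 min (adjusted p = 0.0125). Leaving out any 1 of the 4 libraries lost the 40 min call of ACTG1 (adjusted p from 0.187 to 0.285), and 3 of the 4 lost those of TPM4 (up to 0.12) and CYR61 (up to 0.126). MICAL2, an enzyme that oxidises actin, rose at 240 min by 1.41 ± 0.12 (adjusted p = 0.000167), and FBLIM1, a filamin-binding LIM protein, by 0.97 ± 0.11 (adjusted p = 0.000491). FLNA, the filamin A gene, rose by 0.74 ± 0.19 at 240 min in scramble cells (adjusted p = 0.0231) and was 0.60 ± 0.19 in shLAD1 cells (adjusted p = 0.0562). The FLNA call in scramble cells was lost without 3 of its 4 libraries (adjusted p up to 0.145), and the shLAD1 value passed with the block (adjusted p = 0.00251). Between shLAD1 and scramble cells on the mean of the 3 times, 3 of the 18 were higher and 3 lower, against 9.25% and 9.3% of all genes. With each numbered population averaged first, 0 genes were called. In the same RefSeq windows 5 of the 17 matched genes of this list held a full CArG box (ACTG1, TPM4, CNN2, FBLIM1 and FLNA), as did 2 of the 8 matched immediate early genes (EGR1 and EGR2). The box was also held by 3 of 21 matched genes of the focal adhesion list (ACTN1, TES and TGFB1I1) and by 4 of 19 family relatives (LPP, FHL1, FHL5 and LDB3), against 438 of all 27305 RefSeq genes (1.6%). By window the shares of these lists were 17.24%, 18.18%, 5.88% and 11.11%, in that order, against 1.29% of all windows. The actin and immediate early lists were chosen as SRF targets, so this contrast is no test of them.

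Of 25 other genes of the focal adhesion that were tested, 0 passed at 40 min in either kind of cell. Over all genes 0.846% and 1.02% were called higher then, and a count of 0 is near those shares. At 240 min in scramble cells 11 were higher and 1 lower, against 11.7% and 8.44% of all genes. PALLD, the palladin gene, rose by 1.195 ± 0.109 (adjusted p = 0.000229), ACTN1, an actinin, by 1.03 ± 0.14 (adjusted p = 0.00106), and VASP, an actin elongation factor, by 0.61 ± 0.08 (adjusted p = 0.000856). KANK2, a talin-binding adaptor, fell by 0.72 ± 0.09 (adjusted p = 0.000769). TES, a LIM protein of adhesions, rose by 0.55 ± 0.12 at 240 min (adjusted p = 0.0139, lost without 3 of the 4 libraries), and was 0.35 ± 0.12 at 40 min, which passed with the library number as a block (adjusted p = 0.0461). TGFB1I1, a relative of paxillin, was 0.39 ± 0.59 at 240 min. In shLAD1 cells 9 were higher and 2 lower at 240 min, against 10.8% and 7.76% of all genes. On the mean of the 3 times 5 were higher and 1 lower in shLAD1 than in scramble cells, against 9.25% and 9.3% of all genes. FERMT1 (kindlin-1) was higher by 1.11 ± 0.14 (adjusted p = 0.00126, or 0.191 with each numbered population averaged first).

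Paralogs of the members did not all move with them. Of 23 symbols listed as family relatives, 22 were in the file and 17 were tested. At 40 min 0 passed in either kind of cell, near the 0.846% and 1.02% of all genes called higher. At 240 min 5 were higher and 0 lower in each kind of cell. The shares of all genes were 11.7% and 8.44% in scramble cells, and 10.8% and 7.76% in shLAD1 cells. Beside PDLIM7, its relatives PDLIM4 (1.81 ± 0.27, adjusted p = 0.00205), PDLIM5 (1.05 ± 0.14, adjusted p = 0.000919) and PDLIM2 (0.80 ± 0.13, adjusted p = 0.00274) rose at 240 min in scramble cells, while PDLIM1 was 0.11 ± 0.10, PDLIM3 -0.01 ± 0.67 and LDB3 0.67 ± 0.74. Beside FHL2, FHL3 rose by 0.97 ± 0.12 (adjusted p = 0.000663), while FHL1 stayed at no more than 2.25 normalized counts and FHL5 at 0 in every library. Beside ZYX, LPP rose by 0.33 ± 0.09 (a call lost without 3 of the 4 libraries, adjusted p up to 0.177), while TRIP6 (0.35 ± 0.12), AJUBA (-0.60 ± 0.23) and LIMD1 (0.02 ± 0.14) did not pass.

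Beside VCL, its relative CTNNA1 was 0.20 ± 0.08 and CTNNAL1 0.62 ± 0.42 at 240 min in scramble cells, and beside TLN1, TLN2 was -0.45 ± 0.41, none of which passed. With the library number as a block 8 relatives were higher and 2 lower at 240 min in scramble cells, where 32.7% of all genes were called. It added TRIP6 (adjusted p = 0.00838), CTNNA1 (0.00922) and CTNNAL1 (0.0111) to the higher ones and called AJUBA (0.00261) and TLN2 (0.0112) lower. CSRP2, the relative of CSRP1, lay between 0 and 24.6 normalized counts and could not be measured precisely (-1.66 ± 1.27). The other non-muscle myosin heavy chains, MYH10 (-0.34 ± 0.62) and MYH14 (-0.03 ± 0.08), did not pass where MYH9 did. MYH14 was instead higher in shLAD1 than in scramble cells at each time, by 0.47 ± 0.08 at 0 min (adjusted p = 0.0295), 0.54 ± 0.08 at 40 min (adjusted p = 0.018) and 0.45 ± 0.08 at 240 min (adjusted p = 0.044). These calls of MYH14 were lost without any 1 of the 4 libraries at 0 min (adjusted p from 0.102 to 0.189) and 240 min (0.132 to 0.216) and without 3 of the 4 at 40 min (up to 0.146). With only the 4 libraries compared, the adjusted p was 0.187, 0.19 and 0.207. On the mean of the 3 times 1 of the 17 relatives was higher and 2 lower in shLAD1 cells, where 9.25% of all genes were called higher and 9.3% lower. Averaging each numbered population first, 2 against 2, gave an adjusted p of 0.201 for MYH14, 0.342 for PDLIM2 and 0.411 for AJUBA (limma-trend). With the 12 libraries taken as separate, MYH14 was higher by 0.49 ± 0.05 on the mean of the 3 times (adjusted p = 0.000418). PDLIM2 (-0.35 ± 0.07, adjusted p = 0.0125) and AJUBA (-0.47 ± 0.13, adjusted p = 0.0374) were lower on that mean, AJUBA without a call in 8 of 12 fits that left out 1 library (adjusted p up to 0.0963).

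**Figure D4:**
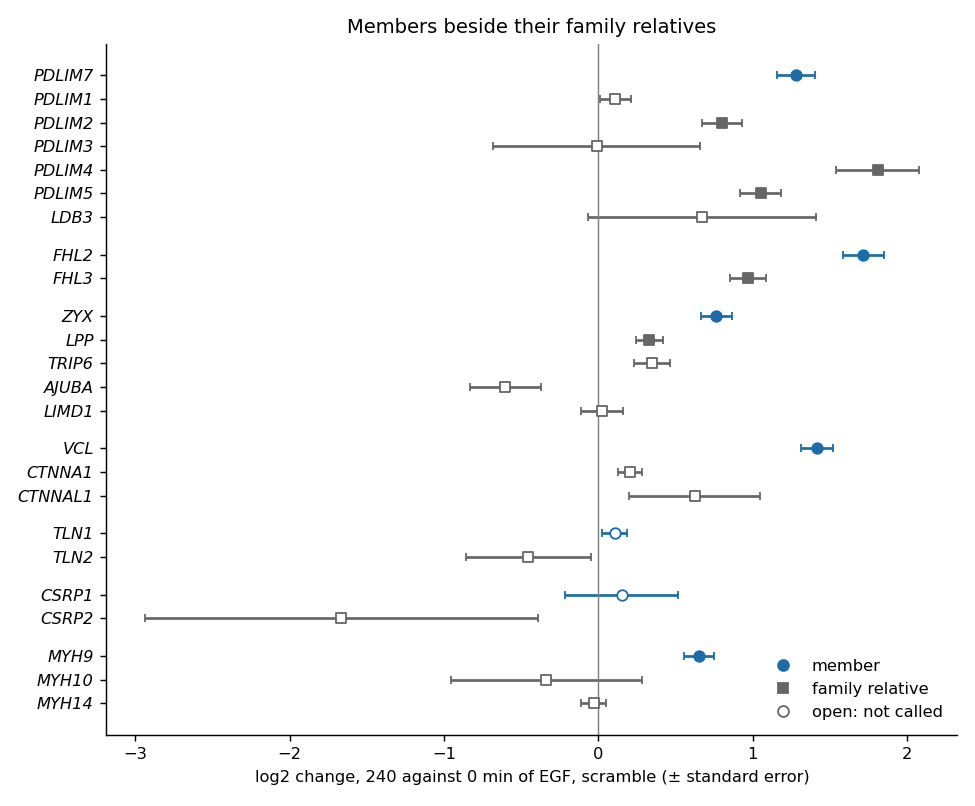
Log2 change at 240 against 0 min of EGF in scramble cells (horizontal axis, bars of 1 standard error) for the members other than SRF and TUFT1 (blue circles) and their tested family relatives (grey squares), grouped by family. Filled symbols passed an adjusted p of 0.05. PDLIM4 (1.81) and FHL2 (1.72) lie farthest right, and MYH9 (0.65) is the myosin heavy chain that passed, beside MYH10 (-0.34) and MYH14 (-0.03).

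Among 11242 genes with a mean of at least 50 normalized counts, those whose log2 levels over the 12 libraries ran most like SRF were ERRFI1 (Pearson r = 0.981), TRAF4, JMJD6, LIF and IER3 (r = 0.968 for each of the last 4). ERRFI1, a feedback inhibitor of the EGF receptor, averaged 1437, 5595 and 3892 normalized counts at 0, 40 and 240 min in scramble cells and 1116, 5729 and 3929 in shLAD1 cells. For VCL the most alike were KTN1 (r = 0.992), CCT5 and OSMR (r = 0.985), PTDSS1 (r = 0.984) and LDHA (r = 0.982). OSMR, a cytokine receptor subunit, averaged 3416, 3748 and 8787 in scramble and 2052, 2343 and 5493 in shLAD1 cells. These likenesses describe 12 points that share shRNA, time and library number.

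Overlapping genes could add reads to a member, since the use of strand in counting is not given in the sources used here. In the GENCODE annotation an exon of AP3M1 on the other strand shares 1109 bases with VCL. AP3M1 changed by -0.09 ± 0.14 at 240 min in scramble cells and differed by -0.19 ± 0.14 between shLAD1 and scramble cells at 0 min, and did not pass in either. On the mean of the 3 times AP3M1 differed by -0.21 ± 0.08 (adjusted p = 0.104, or 0.0196 with the library number as a block). Its shLAD1 libraries lay below the scramble libraries at each time, as those of VCL did. Whether AP3M1 reads add to VCL was not tested. TLN1 shares 61 bases with CREB3 on the other strand. CREB3 was higher in shLAD1 cells by 0.27 ± 0.05 on the mean of the 3 times (adjusted p = 0.00581), where TLN1 differed by -0.02.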

How the data were processed

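Poly-A RNA of 12 libraries was sequenced from TruSeq libraries (per the labels). STAR, DESeq2 and hg19 are named in the submitters' processing notes. The sources used here do not give versions, the counting tool, the gene annotation or the use of strand. The authors deposited 1 table of signal values, which are normalized counts: as tested on the values, 100% are whole reads divided by a size factor per library, to within 0.001. It also holds the authors' deposited log2 fold change and standard error, Wald score and p-values for a comparison whose contrast the headers do not name.

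limma-trend (limma 3.58.1, R 4.3.3, robust) was fitted to log2(normalized count + 1), with a mean for each of 6 groups over all 12 libraries, for the 13950 genes that reached 10 normalized counts in 2 or more libraries. The p-values were adjusted by the Benjamini-Hochberg method within each of 12 comparisons. The design had named edgeR for raw counts, and limma-trend was used because the deposited unit is a normalized signal. edgeR 4.0.16 (quasi-likelihood, TMM) and DESeq2 1.42.0 on the recovered reads, a pseudocount of 5, no filter, other scalings, blocks and left-out libraries were alternatives. The fits across genes were tested on simulated data. Fold changes on this scale understate low genes.

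The 9 members and the 5 gene lists (SRF cofactors, ternary complex factor targets, actin targets, focal adhesion, and family relatives) were chosen with earlier results of these data known. A further list is not reported here. Genes named are all members, the cofactors in the file and the tested relatives, up to 4 called genes with the smallest adjusted p per list and comparison, LAD1, FLNA and EGFR, and the 5 genes most like SRF and VCL. List genes that hold a CArG box are named whatever their p.

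The labels number the libraries 1 and 2. Same-numbered libraries deviated together from their group means: the correlation across genes was 0.645 to 0.734 for the 6 pairs of groups of the same shRNA and 0.247 to 0.307 for the 9 pairs of different shRNAs. The numbers were therefore taken to pair libraries, from the data and not from a stated batch. Taken over all genes, replicates differed beyond counting noise. Members were counted with 288 to 31101 reads per library. Whether depth or spread between libraries sets the precision of each member was not tested.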

Additional observations from a re-analysis of the deposited data

Results flagged for a closer look

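The members VCL, MYH9 and CSRP1 moved in opposite directions in the 2 kinds of cell between 0 and 40 min when libraries are matched by number: both scramble libraries went down and both shLAD1 libraries went up. How many of all genes meet this rule was not counted, so meeting it is not a result about these members. Only the direction marked them out, and the interaction test gave an adjusted p of 1 for each (limma-trend). For VCL the shLAD1 change minus the scramble change was 0.149, with a 95% interval of -0.18 to 0.48. Its steps were small, from 2520 to 2390 and from 2253 to 2209 normalized counts in scramble cells. In shLAD1 cells they were from 1381 to 1517 and from 1495 to 1557. For MYH9 the difference of the changes was 0.108, with an interval of -0.20 to 0.41. MYH9 went from 23242 to 21759 and from 20588 to 19775 in scramble cells, and from 19100 to 19187 and from 20833 to 21663 in shLAD1 cells. For CSRP1 the difference of the changes was 0.537, with an interval of -0.66 to 1.73. CSRP1 went from 1859 to 1724 and from 1517 to 1185 normalized counts in scramble cells, and from 2423 to 2944 and from 1443 to 1812 in shLAD1 cells. With a block for each library number within each shRNA its adjusted p was 0.00146.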

How the results depend on the processing

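Over all alternatives, 1432 log2 changes of members stayed on their side of the threshold, of which 61, called in neither setting, changed sign. A further 34 gained a call, 46 lost one and 0 called changes reversed. Of the counts of members called, 146 stayed within 1.5 times and 22 did not. With the replicate block within each shRNA, members called rose from 2 to 5 (40 min, scramble), from 3 to 5 (40 min, shLAD1) and from 0 to 1 (difference of the 40 min responses). With the plain replicate block they rose from 1 to 4 (shLAD1 against scramble, 40 min) and from 1 to 2 (240 min). With only the groups compared they fell from 3 to 1 (40 min, shLAD1), from 6 to 3 (240 against 40 min, shLAD1), and to 0 for shLAD1 against scramble at 0, 40 and 240 min. DESeq2 called 2 at 40 min for shLAD1 against scramble. Averaging populations gave 0 in place of 4. Leaving out 1 library gave 0 in place of 2 at 0 min, 0 in place of 1 at 40 min and 0 to 1 at 240 min for shLAD1 against scramble. The block changed no other count of members by over 1.5 times.

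Counts over all genes moved more. Outside leave-one-out they ran from 95 to 530 (119 in the main setting; 40 min, scramble), 30 to 666 (145; shLAD1), 2556 to 6715 (2813; 240 min, scramble) and 313 to 6450 (2585; shLAD1), 2302 to 6462 (2580; 240 against 40 min, scramble) and 164 to 6218 (2288; shLAD1). Between shLAD1 and scramble they ran from 1 to 1600 (217; 0 min), 1 to 1578 (230; 40 min), 1 to 1462 (133; 240 min) and 0 to 5034 (2588; mean). The highest came from the blocks. Leaving out 1 library gave 55 to 58 and 75 to 106 at 40 min, 1355 to 1699 and 1300 to 1888 at 240 min, 1137 to 1545 and 1086 to 1602 from 40 to 240 min (scramble and shLAD1 in each case), 1460 to 2793 on the mean, and 4 to 39, 2 to 50 and 4 to 56 between shLAD1 and scramble at 0, 40 and 240 min. Total-count scaling shifted the median of all genes by -0.127 and -0.12 at 240 against 0 min and cut the share of calls that were higher from 58.1% to 34.1% (scramble) and from 58.1% to 34.6% (shLAD1). From 40 to 240 min that share went from 54.9% to 38.1% and from 53.9% to 38.8%. With it SRF fell from 40 to 240 min past the threshold (-0.41 and -0.38), and ZYX no longer passed there in shLAD1 cells (0.31).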
